A study of Mus musculus with 6 samples.

Results

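The mouse genes Zfp700 to Zfp999 were examined in the anterior cingulate cortex (ACC), a frontal brain region tied to mood and pain, of mice given a bacterial endotoxin as juveniles. A gene was taken as a member when its symbol was Zfp followed by exactly 3 digits, the first being 7, 8 or 9. The rule found 103 members among 14250 rows. It used no measured value, but it was set with earlier results of these data known. Another 27 genes with such symbols in the GENCODE annotation were not among these rows, so the results do not cover them. The study compared 3 C57BL/6 mice injected into the abdomen with LPS (lipopolysaccharide, 50 µg per kg) on postnatal day 14 with 3 C57BL/6 mice injected with pyrogen-free saline on the same day. ACC tissue was dissected by hand on postnatal day 45 after perfusion, and polyadenylated RNA of 1 mouse went into each library. Sex, cage and litter of the animals were not given in the sources used here.

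Zinc finger proteins of the C2H2 kind bind DNA through a row of small folds, in each of which a pair of cysteines and a pair of histidines hold a zinc ion. Many mouse members also carry a KRAB (Krüppel-associated box) domain near the start of the protein, which recruits the corepressor Trim28 (KAP1) and, with it, the histone methyltransferase Setdb1. KRAB zinc finger proteins are best known for silencing retrotransposons, and their genes lie in tandem arrays that arose by duplication. Neighbouring members are therefore often close copies of each other, which bears both on the question of whether arrays move together and on how reads are assigned to single genes.

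All 103 members were annotated as protein-coding and they lay on 16 chromosomes. Chromosome 7 held 20 of them, chromosome 17 held 19, chromosome 8 held 14, chromosome 2 held 10 and chromosome 13 held 8. A KRAB-like pattern was found in the reading frames of 81 members, which had a median of 11 finger patterns each. No such pattern was found in the other 22, which had a median of 6 finger patterns. The pattern search is a description of sequence and not an annotation of domains.

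The sequences below show the makeup of Zfp788, the member on which the comparison turned. They come from the GENCODE transcript of Zfp788, and the fingers are 3 that follow each other directly, with the codons of the zinc-holding cysteines and histidines in capitals.
Zfp788 finger A: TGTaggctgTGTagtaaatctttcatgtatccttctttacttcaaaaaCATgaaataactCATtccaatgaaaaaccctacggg
Zfp788 finger B: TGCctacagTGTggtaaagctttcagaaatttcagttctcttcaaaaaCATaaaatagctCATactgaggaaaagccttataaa
Zfp788 finger C: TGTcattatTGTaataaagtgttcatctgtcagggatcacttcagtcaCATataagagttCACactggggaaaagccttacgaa
Each stretch spans 84 bases. Fingers A and B shared 65.5% of their bases, B and C 65.5%, and A and C 57.1%.

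The core of the KRAB box is shown next, because it shows how far copies in the same array can be identical. The first sequence was the same, base for base, in Zfp966, Zfp965, Zfp968 and Zfp969, which are neighbours on chromosome 2. The second is that of Zfp788 on chromosome 7, with capitals where it differs from the first.
Zfp966, Zfp965, Zfp968 and Zfp969 KRAB core: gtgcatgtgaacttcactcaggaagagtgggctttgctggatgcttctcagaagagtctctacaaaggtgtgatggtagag
Zfp788 KRAB core: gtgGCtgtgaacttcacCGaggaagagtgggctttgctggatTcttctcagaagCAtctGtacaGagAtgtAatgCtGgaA
Zfp788 matched the chromosome 2 sequence at 67 of 81 bases (82.7%). A read lying wholly within this stretch would match all 4 chromosome 2 genes.

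LPS libraries held 41270737, 41223469 and 36168687 counts, and Saline libraries held 39308376, 39804999 and 37416194. Members took 0.147% to 0.153% of the counts in LPS libraries and 0.151% to 0.156% in Saline libraries. Every member passed the low-count filter, which removed 0 rows, and the lowest count of a member in any library was 13. Markers of excitatory cortical neurons summed to 1390 to 1410 FPKM in LPS mice and 1330 to 1420 FPKM in Saline mice, and 0 of 3 choroid plexus markers were among the rows. Summed levels of the other marker lists also overlapped between the groups, including microglia at 94.7 to 113 FPKM in LPS mice and 98.6 to 108 FPKM in Saline mice. Some lists varied widely between libraries. Hippocampal markers summed to 16.4 to 38.8 FPKM in LPS mice and 22.5 to 44.3 FPKM in Saline mice. Meningeal markers summed to 14.4 to 20.5 FPKM in LPS mice and 7.76 to 16.8 FPKM in Saline mice. Rows of unannotated transcripts took 1.61% to 2.03% of the counts in LPS libraries and 2.51% to 2.93% in Saline libraries, and whether this bears on any member was not tested.

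Most members were transcripts of low abundance. FPKM values, which are scaled to gene length and depth and so allow levels of different genes to be set side by side, had a median of 2.86 over the members in Saline mice, against 7.13 over all rows and 3.48 over the 249 other Zfp genes. Members with the KRAB pattern had a median of 2.3 FPKM, and those without it 5.94 FPKM. In Saline mice 16 members averaged under 1 FPKM and 6 reached 10 FPKM or more.

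The most abundant member was Zfp706, with a mean of 30.9 FPKM in LPS mice and 31.5 FPKM in Saline mice. Zfp771 followed with 30.4 FPKM in LPS mice and 28.2 FPKM in Saline mice. Neither passed the test, with a log2 change of -0.02 (SE 0.0556) for Zfp706 and 0.11 (SE 0.0601) for Zfp771. Zfp703, whose human counterpart ZNF703 is amplified in breast cancer, had 15.4 FPKM in LPS mice and 15.0 FPKM in Saline mice. Zfp821 had 13.8 and Zfp777 had 11.0 FPKM in LPS mice, against 13.3 and 10.6 FPKM in Saline mice. The other end of the scale was held by Zfp953 (0.225 FPKM in LPS mice, 0.191 in Saline mice), Zfp992 (0.469 and 0.346), Zfp979 (0.409 and 0.378), Zfp966 (0.618 and 0.389) and Zfp773 (0.272 and 0.508).

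**Figure D1:**
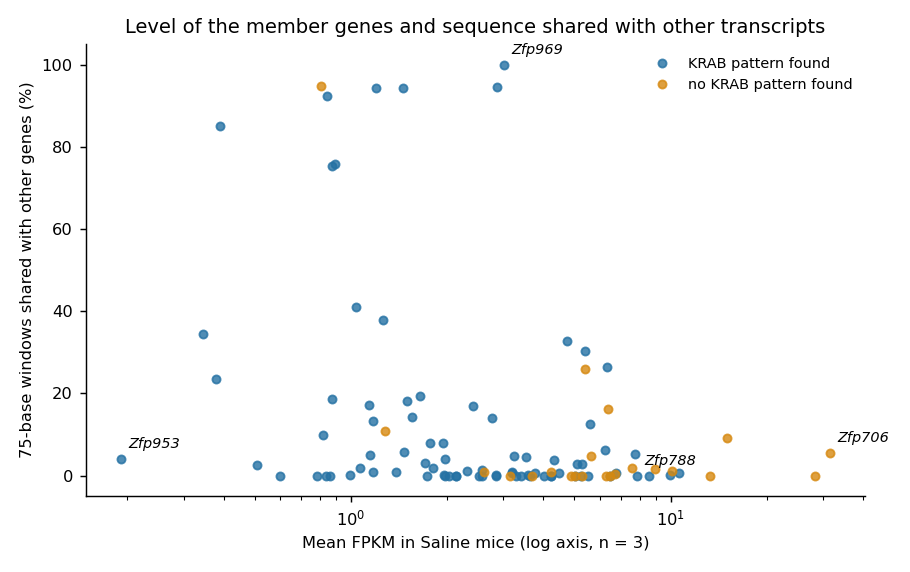
Mean FPKM of each member in Saline mice (log axis, n = 3) against the percentage of its 75-base windows that also occur in transcripts of other genes, on either strand. Zfp788 shares none, Zfp969 shares 100%, and the most abundant members, Zfp706 and Zfp771, lie near the bottom of the plot.

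Sequence shared with other genes was measured as the percentage of 75-base windows of a member's transcripts that also occur in the transcripts of another gene. No window was shared in 32 members, under 10% in 75 members, and 50% or more in 9 members. Those 9 were Zfp969, Zfp784, Zfp965, Zfp781, Zfp708, Zfp968, Zfp966, Zfp991 and Zfp960, and their counts are uncertain as values of single genes. Their median log2 change was -0.1.

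Zfp788 was the only member to pass the test between LPS and Saline mice. By edgeR's quasi-likelihood test with Benjamini-Hochberg adjustment over all 14250 rows, 0 members were higher and 1 was lower in LPS mice at an adjusted p under 0.05. Over all rows 0.0982% were called higher and 0.189% lower, which makes 0.288% in either direction. DESeq2 called the same single member, against 0.983% of the rows it tested. At an unadjusted p under 0.05, 1 member was higher and 6 were lower in LPS mice. That was 6.8% of the members, close to 7.17% of all rows.

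Zfp788 (ENSMUSG00000074165) lies on the forward strand of chromosome 7 at 41633203 to 41651530 in GRCm38, with 4346 bases of exon sequence. Its longest reading frame held 884 codons and 23 finger patterns, a number that no member exceeded and that Zfp748 also reached. It carried the KRAB pattern, and none of its 75-base windows occurred in a GENCODE transcript of another gene. The search counted matches of whole windows to annotated transcripts only, so it does not show that every read was assigned uniquely. No exon of another tested gene with a known position overlapped Zfp788.

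Zfp788 had 387, 352 and 378 counts in LPS mice, against 1026, 1031 and 1072 counts in Saline mice. On a common scale these were 9.23, 8.70 and 10.4 CPM (counts scaled to library size) in LPS mice and 26.9, 25.8 and 28.2 CPM in Saline mice. The 3 LPS libraries lay close together, far below the lowest Saline library. The mean was 9.43 ± 0.845 CPM in LPS mice and 26.9 ± 1.21 CPM in Saline mice (SD, n = 3 each), so that LPS mice had 35.0% of the Saline level. The log2 change was -1.51 (SE 0.0953, edgeR adjusted p = 9.92e-05), and by p Zfp788 ranked 6 among all rows. The authors' FPKM values gave the same picture, with 2.88, 2.76 and 2.97 FPKM in LPS mice and 7.56, 7.38 and 8.53 FPKM in Saline mice. In bulk tissue, fewer cells with the transcript and less transcript per cell cannot be told apart.

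**Figure D2:**
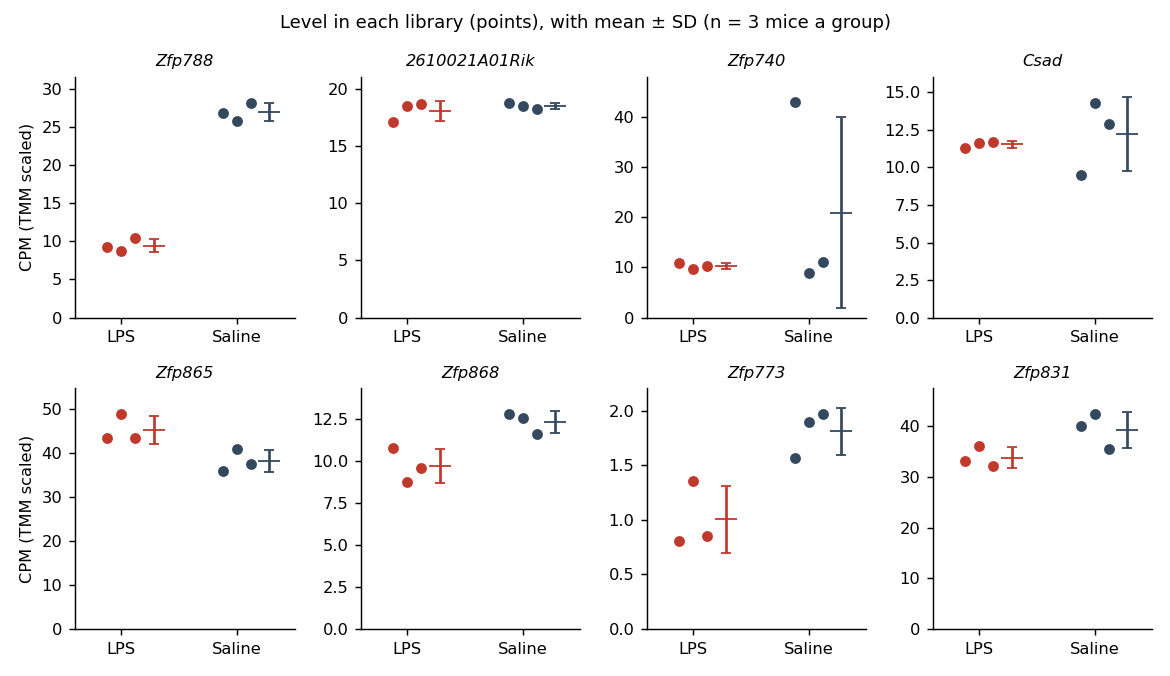
CPM in each library (points) with mean ± SD (bars, n = 3 mice a group), LPS left and Saline right, for Zfp788, its nearest tested neighbour 2610021A01Rik, Zfp740 with the overlapping gene Csad, and the members with the smallest unadjusted p after Zfp788. Zfp788 separates into 8.70 to 10.4 CPM in LPS mice and 25.8 to 28.2 CPM in Saline mice, 2610021A01Rik does not separate, and the mean of Zfp740 in Saline mice rests on 1 library at 43.0 CPM.

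No other tested gene with a known position around Zfp788 passed the test. The 688 rows of unannotated transcripts carried no position here, so any that lie in this region were not considered. The nearest tested gene, 2610021A01Rik, lies on the same strand and ends 4669 bases before Zfp788 begins. It had 17.1, 18.5 and 18.7 CPM in LPS mice and 18.8, 18.5 and 18.3 CPM in Saline mice, and the groups overlapped. Its log2 change was -0.03 (SE 0.0806). On the other side the nearest tested gene was Zfp141, 821855 bases away, with a log2 change of -0.12 (SE 0.112). The nearest member was Zfp975, with 3.41, 3.49 and 3.59 CPM in LPS mice and 4.77, 2.95 and 4.07 CPM in Saline mice (log2 -0.17, SE 0.198). Within 2.5 Mb of Zfp788 there were 19 other tested genes with a known position. Their log2 changes ran from -0.78 in the variable gene Gm45233 to 0.34, with a median of 0.0, and 9 of them were positive. Each Zfp gene among them was negative, with -0.22 (SE 0.24) in Zfp619, -0.17 (SE 0.198) in Zfp975 and -0.12 (SE 0.112) in Zfp141. Zfp719 had -0.09 (SE 0.118), Zfp658 had -0.08 (SE 0.133) and Zfp715 had -0.01 (SE 0.0821).

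**Figure D3:**
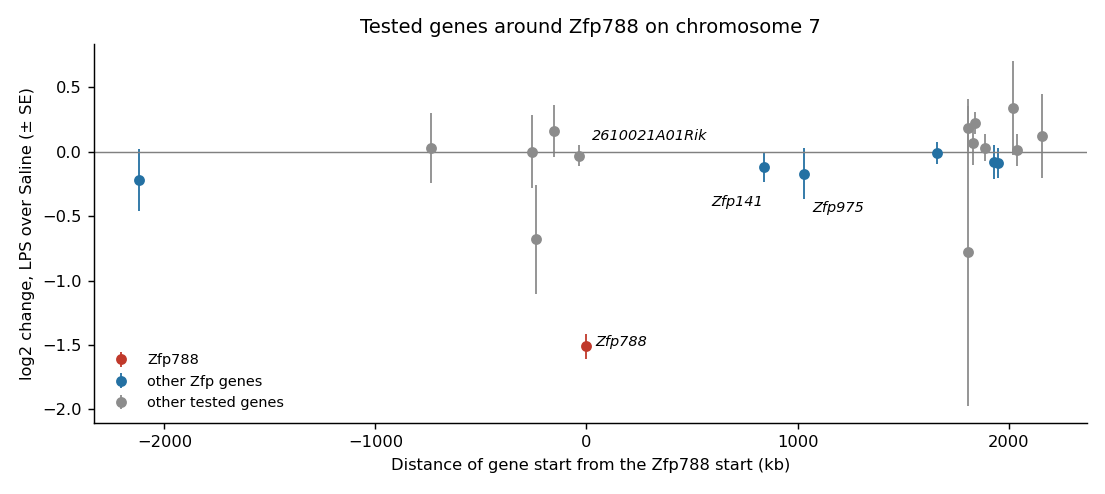
Log2 change of LPS over Saline with its SE for Zfp788 and the 19 other tested genes of known position within 2.5 Mb. Genes are placed by distance of the gene start from that of Zfp788 in kb. Zfp788 at -1.51 stands apart, while its nearest neighbour 2610021A01Rik and the Zfp genes of the region lie much closer to 0.

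Over all members the typical change was small. The median log2 change of all 103 members was -0.053, with quartiles of -0.17 and 0.051, against a median of 0.0014 over all rows and -0.016 over the other Zfp genes. The change was within 0.25 of 0 on the log2 scale in 83 members (80.6%), against 85.7% of all rows, with a median SE of 0.14 for members and 0.1 for all rows. Negative changes were found in 62 members (60.2%), against 49.6% of all rows. This small shift rested on 1 library. Relative to the Saline mean, the median member lay at -0.022, -0.006 and -0.054 in the LPS libraries and at -0.012, -0.054 and 0.077 in the Saline libraries, and without Saline 3 the median log2 change of the members was 0.002. The other Zfp genes were also at their highest in Saline 3, with a library median of 0.038.

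**Figure D4:**
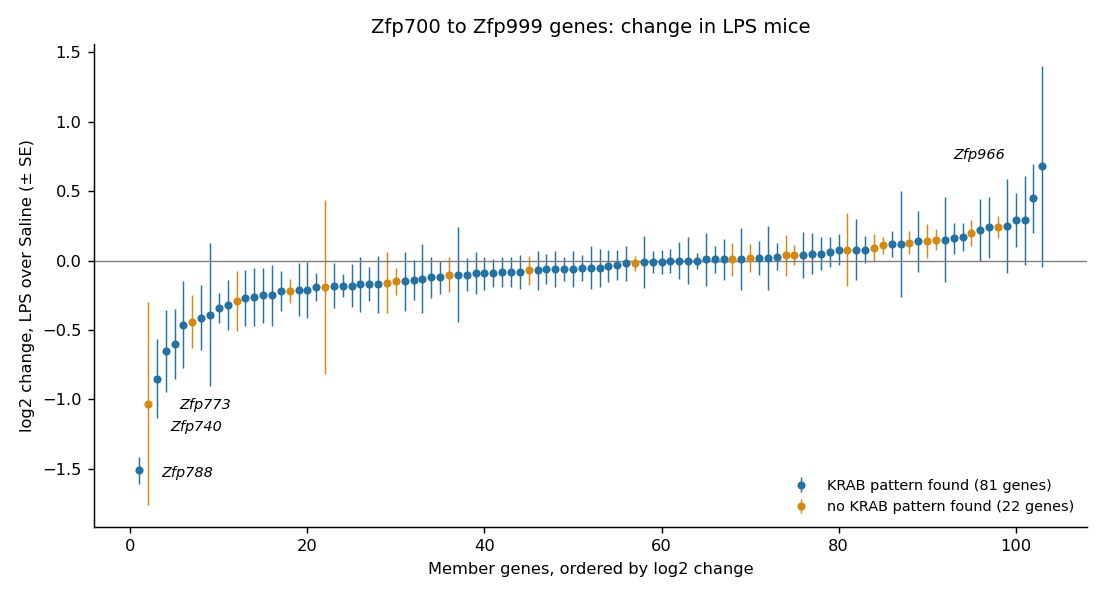
Log2 change of LPS over Saline with its SE for each of the 103 members, in order of size and coloured by whether a KRAB pattern was found. Zfp788 has the lowest value, -1.51, with a short error bar, while Zfp740 at -1.03 and Zfp966 at 0.68 have SEs of 0.729 and 0.723.

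Split by the KRAB pattern, the 81 members with it had a median log2 change of -0.057, with 1 called lower and 0 called higher. The 22 members without it had a median of 0.012 and 0 called. Since the pattern is not an annotation of domains, a member without it may still carry a KRAB domain. In 11 members (10.7%) the LPS and Saline libraries did not overlap, against 13.7% of all rows. The LPS libraries lay above in 5 of these, Zfp746, Zfp771, Zfp865, Zfp952 and Zfp992 (4.85%), and below in 6, Zfp738, Zfp773, Zfp788, Zfp868, Zfp879 and Zfp945 (5.83%). Over all rows each direction took 6.84%.

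Among the members that did not pass, Zfp865 had the smallest p in the higher direction. It had 43.3, 48.7 and 43.3 CPM in LPS mice and 35.9, 40.8 and 37.5 CPM in Saline mice, with no overlap between the groups (log2 0.24, SE 0.0786, edgeR adjusted p = 0.497). Its exons overlap those of Ccdc106 and Zfp784, so part of its reads can belong to either. Zfp784 shares 94.66% of its windows with Zfp865 and had a log2 change of -0.19 (SE 0.628), opposite in sign and with a wide error. Zfp865 also separated less in the authors' FPKM, with 7.58, 5.80 and 6.89 in LPS mice and 4.26, 7.22 and 4.66 in Saline mice, where the groups overlapped.

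Zfp746 encodes PARIS, a repressor known for acting on the gene of the mitochondrial regulator PGC-1α. It had 27.8, 26.4 and 30.0 CPM in LPS mice and 24.9, 21.9 and 26.4 CPM in Saline mice, so that the lowest LPS and the highest Saline library came within rounding of each other. Its log2 change of 0.20 (SE 0.0913) did not pass (edgeR adjusted p = 0.705). Zfp771 had 48.9, 47.9 and 47.7 CPM in LPS mice and 46.3, 44.5 and 43.4 CPM in Saline mice. Its groups did not overlap, and its adjusted p by edgeR was 0.770. Zfp704 averaged 106 ± 8.95 CPM in LPS mice and 95.9 ± 5.81 CPM in Saline mice (SD, n = 3 each; log2 0.15).

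On the lower side, Zfp868 had 10.8, 8.77 and 9.61 CPM in LPS mice and 12.8, 12.6 and 11.6 CPM in Saline mice. The groups did not overlap and the log2 change was -0.34 (SE 0.110, edgeR adjusted p = 0.502). Zfp773 had 0.811, 1.36 and 0.849 CPM in LPS mice and 1.57, 1.90 and 1.97 CPM in Saline mice. This was the largest difference without overlap after Zfp788 (log2 -0.85, SE 0.283, edgeR adjusted p = 0.522), at a level of 34 counts in LPS 1. Zfp831 had 33.1, 36.1 and 32.2 CPM in LPS mice and 40.1, 42.4 and 35.5 CPM in Saline mice (log2 -0.22, SE 0.0853). Its groups overlapped, since Saline 3 lay below LPS 2.

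The other members with a p among the 10 smallest of their direction did not pass either. Zfp879 averaged 1.32 ± 0.273 CPM in LPS mice and 2.08 ± 0.673 CPM in Saline mice (SD, n = 3 each; log2 -0.65). Zfp775 averaged 4.20 ± 0.563 CPM in LPS mice and 5.70 ± 1.20 CPM in Saline mice (log2 -0.44). The log2 change was -0.32 for Zfp791, -0.19 for Zfp945 and -0.18 for Zfp738, and in the other direction 0.45 for Zfp992, 0.29 for Zfp786, 0.17 for Zfp943, 0.16 for Zfp867, 0.13 for Zfp853 and 0.12 for Zfp952.

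A pair of large estimates came from members that varied within a group. Zfp740 had 10.8, 9.61 and 10.2 CPM in LPS mice and 43.0, 8.89 and 11.0 CPM in Saline mice. Only Saline 1 was high, and the log2 change of -1.03 (SE 0.729) became 0.04 without it. Zfp740 overlaps exons of Csad on the opposite strand by 278 bases, and the library kit is not stated to keep the strand. Csad had 9.48 CPM in Saline 1, lower than its 14.3 and 12.9 CPM in the other Saline libraries. The authors' FPKM of Zfp740 was 11.6 in Saline 1 and 5.14 and 5.96 in the other Saline libraries, a smaller excess than in CPM. In Saline 1 the ratio of FPKM to CPM was 0.51 of the typical value of the gene. Departures of over 1.5-fold in this ratio were found in 3 members, the others being Zfp964 and Zfp969.

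Zfp966 had the highest log2 change of the members, 0.68, with an SE of 0.723. It had 2.24, 1.93 and 1.84 CPM in LPS mice and 0.340, 2.72 and 0.657 CPM in Saline mice, so the LPS libraries lay between the Saline libraries. The log2 change was 2.0 without Saline 2 (edgeR adjusted p = 0.107, the lowest of its alternatives, which reached 0.987), 0.24 without Saline 1 and 0.38 without Saline 3. Its windows were shared to 85.07% with other genes. When Zfp965, Zfp966, Zfp968 and Zfp969, the genes with the identical KRAB core, were added up, LPS mice had 9.56, 7.64 and 7.42 CPM and Saline mice 6.29, 9.94 and 7.91 CPM. The sum averaged 8.21 ± 1.18 CPM in LPS mice and 8.05 ± 1.83 CPM in Saline mice (SD, n = 3 each), and the groups overlapped. This sum was chosen after the values had been seen.

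Zfp827, known from work on telomeres and the NuRD complex, had the second widest spread within a group. It had 65.8, 65.5 and 41.8 CPM in LPS mice and 62.8, 59.7 and 41.0 CPM in Saline mice. Its lowest libraries were LPS 3 and Saline 3, with almost the same value, and its log2 change was 0.08 (SE 0.260). Zfp703 was also lowest in LPS 3 and Saline 3, with 51.0, 56.5 and 45.9 CPM in LPS mice and 57.9, 51.3 and 39.6 CPM in Saline mice (log2 0.04, SE 0.148). The labels do not say that libraries with the same number share a litter or a day.

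Members with a known role in silencing mobile elements, picked for that role after the values had been seen, did not pass the test. Zfp809, which initiates silencing of proviruses in mouse embryonic stem cells, had 9.85, 10.7 and 6.57 CPM in LPS mice and 7.05, 10.7 and 8.02 CPM in Saline mice (log2 0.08, SE 0.218). Zfp932, a repressor of endogenous retroviruses, had 10.6, 12.4 and 12.3 CPM in LPS mice and 10.8, 12.7 and 13.9 CPM in Saline mice (log2 -0.08, SE 0.121). The groups overlapped in both. Zfp708, which acts on a retrotransposon family in oocytes, had 3.27, 3.81 and 2.79 CPM in LPS mice and 4.71, 2.90 and 4.10 CPM in Saline mice (log2 -0.25, SE 0.218). The windows of Zfp708 were shared to 94.31% with other genes, so its counts are uncertain as values of a single gene. Those of Zfp932 were shared to 26.43%, and Zfp809 shared none. Zfp711, whose human counterpart ZNF711 is linked to X-linked intellectual disability, had a log2 change of -0.10 (SE 0.123).

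To describe whether neighbours moved together, members were joined into positional clusters where starts of neighbouring members lay no more than 1 Mb apart, with at least 3 measured members. This gave 13 clusters with 65 members, and 38 members, Zfp788 included, lay outside them. At this gap no cluster member passed the test in either direction. With gaps of up to 2 Mb, Zfp788 joined Zfp975, Zfp715 and Zfp719 in a cluster of 4, of which Zfp788 alone was called. Of the 65 cluster members, 5 had an unadjusted p under 0.05 (7.69%), against 7.17% of all rows. Cluster medians were below 0 in 10 clusters and above 0 in 3, and they ran from -0.21 to 0.14 on the log2 scale. Of the 65 cluster members 61.5% had a negative change, against 60.2% of all members and 49.6% of all rows. Without Saline 3 the median log2 change of all members was 0.002, and without each other library it ran from -0.073 to -0.025. Cluster medians and the share of negative cluster members are not given with a library left out.

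The largest cluster, 11 members from Zfp948 to Zfp945 on chromosome 17 (21567008 to 22867134 in GRCm38), had a median log2 change of -0.044. Its members ran from -0.22 in Zfp760 to 0.17 in Zfp943, with 4 positive and 7 negative. Relative to the Saline mean, the cluster lay at -0.06, -0.04 and -0.04 in the LPS libraries and at 0.00, -0.08 and 0.08 in the Saline libraries. The LPS values lay within the Saline range. The second chromosome 17 cluster, Zfp871 to Zfp763, was flatter still, with 6 members between -0.06 in Zfp870 and 0.12 in Zfp952.

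As single genes, 13.7% of all rows did not overlap between the groups, and a like share for groups of neighbouring genes is not given. At the 1 Mb gap the library means did not overlap in 2 of 13 clusters, with LPS below in both. Which clusters these were depended on the gap. The first was Zfp930 to Zfp866 on chromosome 8 (69209038 to 69791178), whose 6 members averaged -0.28, -0.14 and -0.21 in the LPS libraries and -0.11, -0.10 and 0.21 in the Saline libraries. Its median log2 change of -0.21 was the lowest of the clusters, yet 2 of its members were positive, and the range ran from -0.60 in Zfp964 to 0.14 in Zfp963. Zfp964 had 2.74, 2.55 and 2.63 CPM in LPS mice and 2.65, 3.92 and 5.41 CPM in Saline mice (log2 -0.60, SE 0.251, edgeR adjusted p = 0.694), and Saline 1 lay within the LPS range. Zfp868, described above, belongs to this cluster. With gaps of up to 300 kb Zfp930 dropped out and the libraries overlapped, at -0.20, -0.17 and -0.11 in LPS mice and -0.19, -0.01 and 0.20 in Saline mice.

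The second was Zfp970, Zfp971 and Zfp931 on chromosome 2 (177464733 to 178078476), at -0.14, -0.14 and -0.29 in the LPS libraries and -0.05, -0.08 and 0.13 in the Saline libraries. All 3 changes were negative, at -0.25 (SE 0.198), -0.18 (SE 0.154) and -0.12 (SE 0.120), and each was under 1.5 times its SE. With gaps of up to 2 Mb these genes joined the chromosome 2 cluster before them and the libraries overlapped, and at 300 kb they formed no cluster. In both clusters Saline 3 was the highest library, as it was for the members as a whole. The only other cluster with all members of 1 sign was Zfp975, Zfp715 and Zfp719 on chromosome 7, the cluster nearest to Zfp788. Its libraries overlapped, at -0.11, -0.03 and -0.09 in LPS mice and 0.17, -0.21 and 0.04 in Saline mice.

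The highest cluster median, 0.14, was that of 6 members from Zfp992 to Zfp933 on chromosome 4. It lay at -0.03, 0.38 and 0.07 in the LPS libraries and 0.11, -0.05 and -0.06 in the Saline libraries, so that only LPS 2 stood out. On chromosome 6, 5 members from Zfp786 to Zfp775 pointed both ways, from -0.44 in Zfp775 to 0.29 in Zfp786. On chromosome 7, the cluster of Zfp787, Zfp954, Zfp773 and Zfp772 ran from -0.85 in Zfp773 to 0.05 in Zfp772. At 300 kb it lost Zfp787, and its libraries then did not overlap, at -0.44, -0.16 and -0.23 in LPS mice and 0.05, -0.11 and 0.06 in Saline mice. At 2 Mb the only clusters without overlap were Zfp930 to Zfp866 and the one with Zfp788, both with LPS below. The mean of the latter includes the called Zfp788 itself. Its other members, Zfp975, Zfp715 and Zfp719, overlapped between the groups as a cluster at the 1 Mb gap.

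**Figure D5:**
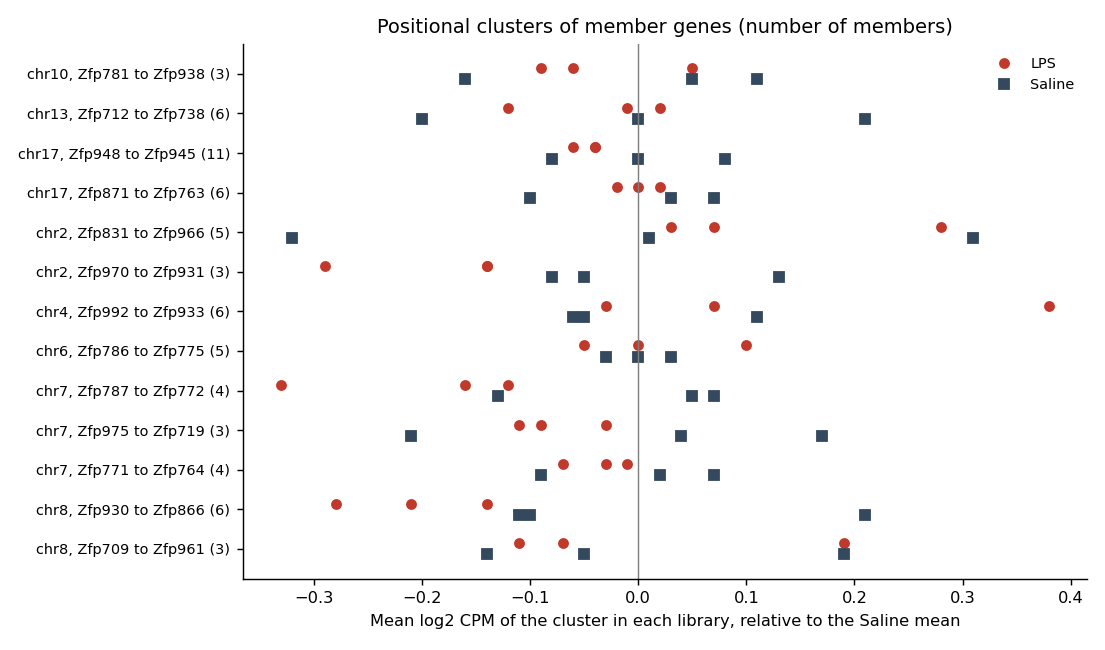
Mean log2 CPM of the members of each positional cluster in each library, relative to the Saline mean, with LPS libraries as circles and Saline libraries as squares. Libraries of the groups overlap in all clusters except Zfp970 to Zfp931 on chromosome 2 and Zfp930 to Zfp866 on chromosome 8, where the 3 LPS circles lie left of the Saline squares. Equal values lie on top of each other.

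Pairs of neighbours within clusters had changes of the same sign in 29 of 52 cases (55.8%), against 2407 of 4680 pairs of members on different chromosomes (51.4%). The median difference between the log2 changes of a pair was 0.14 within clusters and 0.19 between chromosomes. These figures rest on different sets, the 65 cluster members and all 103 members. The SD of the log2 changes was 0.23 in cluster members and 0.33 in the 38 outside clusters. The smaller figure therefore does not show that neighbours were more alike. With gaps of up to 300 kb the same sign was found in 21 of 41 neighbouring pairs (51.2%), and with gaps of up to 2 Mb in 32 of 61 (52.5%). These pairs share libraries and, in part, sequence, and the shares are given as a description.

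Genes of the machinery through which KRAB zinc finger proteins silence chromatin did not pass the test either. Of 42 measured genes, edgeR called 0, against 0.288% of all rows, and DESeq2 called 0, against 0.983%. An unadjusted p under 0.05 was found in 1 of them (2.38%), against 7.17% of all rows. Their median log2 change was 0.0041, against 0.0014 over all rows. Trim28, the corepressor bound by the KRAB box, had 103, 102 and 96.4 CPM in LPS mice and 95.3, 95.1 and 95.8 CPM in Saline mice, which gave a log2 change of 0.07 (SE 0.0534, adjusted p = 0.812 by edgeR). Setdb1, which methylates histone H3 at the silenced sites, had 33.1, 37.7 and 33.9 CPM in LPS mice and 32.4, 30.7 and 34.7 CPM in Saline mice (log2 0.10, SE 0.0808). The groups overlapped for Setdb1 but not for Trim28, where LPS 3 was only just above the Saline libraries.

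Ehmt1, another histone H3 methyltransferase, was the gene of this list with an unadjusted p under 0.05, with 32.8 ± 1.47 CPM in LPS mice and 28.4 ± 1.90 CPM in Saline mice (SD, n = 3 each; log2 0.21, SE 0.0784, edgeR adjusted p = 0.599). Sumo3, a small modifier protein that is attached to Trim28 among many others, had the highest log2 change of the list, with 52.0, 80.5 and 110 CPM in LPS mice and 55.7, 49.2 and 56.4 CPM in Saline mice (log2 0.59, SE 0.299), and its groups overlapped. Rbbp7, a histone-binding subunit of the NuRD complex, had a log2 change of -0.11 (SE 0.0549). Mphosph8, a reader of methylated histone H3 in the HUSH silencing complex, had one of -0.13 (SE 0.0692). Neither passed the test.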

How the data were processed

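In 1 table of 14250 rows the authors deposited whole-number counts of each gene in each library together with FPKM values. GRCm38, TopHat2 2.1 and DESeq 1.10.1 were named, per the submitters' processing notes. What each tool did, how reads were counted and which annotation was used is not given in the sources used here. EdgeR 4.0.16 was used, by its quasi-likelihood F-test with filterByExpr, TMM factors and the robust option, in R 4.3.3, on all rows and all 6 libraries with treatment as the only term. Adjusted p-values are Benjamini-Hochberg over all rows, two-sided, with a threshold of 0.05. CPM values use TMM factors, and log2 CPM a prior count of 2. Alternatives used DESeq2 1.42.0 and limma 3.58.1 (voom on counts, and trend on log2 of FPKM plus 1). The edgeR steps were tested on simulated data.

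Positions came from GENCODE M21 (GRCm38). Finger, KRAB and shared-window searches used the longest reading frames or all transcripts of that release. They were added after the values had been seen. No libraries were near-duplicates (chi-square per degree of freedom at least 32.1).

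The members and lists were chosen with earlier results of these data known. Named members were those past the threshold, the 10 smallest p-values per direction, the extremes of each cluster, the 5 highest and 5 lowest FPKM levels in Saline mice and the 3 widest ranges within a group, and of the machinery Trim28, Setdb1 and 2 genes per direction. Other members named by sequence or known role were chosen after their values were seen.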

Additional observations from a re-analysis of the deposited data

How the results depend on the processing

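Zfp788 was the only member called under each of the alternatives run: RLE size factors, library size alone, a threshold of 0.1, no robust option, a minimum mean of 50 counts, no filter, DESeq2, limma-voom, limma on FPKM, the replicate number as a block, and leaving out each library. Its log2 change ran from -1.59 to -1.19, with a highest adjusted p of 0.00234. Both the smallest change and this p came from limma on FPKM. There 1 is added to each FPKM before the log, which shrinks changes at low levels. The labels give no link between same-numbered libraries beyond the number. Across genes the deviations of such libraries were almost uncorrelated, at -0.0266, 0.0252 and 0.0421 for replicates 1, 2 and 3. With the replicate block 1 member was called lower and the median log2 change was -0.038. Leaving out each library gave medians from -0.073 to 0.002, the last without Saline 3. On FPKM the sign turned for Zfp777 (0.04), Zfp827 (-0.08) and Zfp870 (0.03). Leaving out a library turned the sign of 13 of the 44 named members, none of them called. Their values ran from -0.10 to 0.17 in Zfp703, -0.04 to 0.01 in Zfp706, -0.06 to 0.04 in Zfp715, -1.40 to 0.04 in Zfp740, -0.02 to 0.14 in Zfp772, -0.11 to 0.01 in Zfp777, -0.09 to 0.27 in Zfp827, -0.17 to 0.04 in Zfp870, -0.10 to 0.16 in Zfp873, -0.11 to 0.03 in Zfp933, -0.08 to 0.53 in Zfp961, -0.01 to 0.30 in Zfp963 and -0.23 to 0.37 in Zfp979. The causes were not tested. The other Zfp genes had 0 calls by edgeR, with 24 at an unadjusted p under 0.05 (9.64%, against 7.17% of all rows), and 0 by DESeq2, an alternative chosen after seeing the data. The uncalled Zfp966 ran from 0.24 to 2.0 when a library was left out, and was 1.20 by limma-voom, 1.08 with the replicate block and 0.26 on FPKM. Its FPKM lay under 1 in each library, where the added 1 shrinks a change strongly. Member clusters numbered 11 at a gap of 300 kb and 14 at 2 Mb, and those whose libraries did not overlap differed between gaps. The number of mice, 3 a group, limits the precision, with a median SE of 0.14 for members.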
